A study of Mus musculus with 4 samples.

Results

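The CCN and matricellular genes described here are 10 genes for secreted proteins of the extracellular matrix, *Ccn1*, *Ccn2*, *Ccn3*, *Ccn4*, *Thbs1*, *Thbs2*, *Postn*, *Tnc*, *Sparc* and *Sparcl1*, measured in mouse mammary fibroblasts with and without the transcription factor Ets2. They were taken by symbol and make up 10 of the 18194 genes, and 21 of the 34958 probe sets, that carry exactly 1 gene symbol in the platform annotation. *Ccn3* was chosen by these values themselves, since its Ets2 differences in normal and *ErbB2* fibroblasts ran in opposite directions. They are therefore given as a description. The other 9 genes were listed with results of these arrays known, so nothing is read from how many of them moved.

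Each of the 4 genotypes was measured on 1 Affymetrix mouse genome array, with RNA from cultured mammary fibroblasts of 16-week-old female FVB/N mice. Normal fibroblasts came from Ets2db/loxP mice (*Ets2* present) and from FspCre;Ets2db/loxP mice (*Ets2* null). *ErbB2* fibroblasts came from ErbB2;Ets2db/loxP mice (*Ets2* present) and from ErbB2;Fsp-cre;Ets2db/loxP mice (*Ets2* null), in which the *ErbB2* oncogene was expressed in the mammary epithelium from the MMTV promoter. All 4 genotypes carried 1 db allele of *Ets2*, a germline allele that disrupts the DNA-binding domain, and 1 loxP allele, so fibroblasts called *Ets2* present had a single working copy at most. Cre came from the promoter of *Fsp* (fibroblast-specific protein, *S100a4*), which is active in fibroblasts and is known in some other stromal and myeloid cells too. The cells were separated by gravity from digested tissue and grown in medium with 10% serum up to the second passage. Whether each RNA came from a single animal or from several is not clear from the sources used here. A single array stands for each genotype, so no value has a replicate, a test or an error, and differences were read by size alone, 4-fold (a log2 difference over 2) and beside it 2-fold (over 1).

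Matricellular proteins are secreted into the matrix but do little to hold it up. They bind integrins, proteoglycans, collagens and growth factors, and so alter how cells attach, move and respond to signals, and many of them are made in wounds and in tumor stroma. The CCN proteins are cysteine-rich members of this class. *Ccn1* and *Ccn2* are immediate-early genes and well known targets of the coactivator YAP with its TEAD partners, of serum response factor and of TGF-beta, whereas CCN3 is known mostly for opposing growth and for countering CCN2. Thrombospondins, periostin and tenascin C are typical products of activated fibroblasts.

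The promoters of *Ccn1*, *Postn* and *Tnc* are shown because these 3 genes passed 2-fold in a comparison and have an entry in the RefSeq promoter table (GRCm38.p6). That table held 5 of the 10 genes, at 7 start sites. Each sequence is the 250 bases before the start, 5′ to 3′ on the gene's own strand: chr3:145649986-145650235 on the minus strand for *Ccn1*, chr3:54360857-54361106 on the plus strand for *Postn*, and chr4:64047016-64047265 on the minus strand for *Tnc*. For *Postn* and *Tnc*, which have 2 start sites each in the table, the window whose TATAAA lies nearest to its start is shown. Capitals mark matches to the letters searched.
Ccn1: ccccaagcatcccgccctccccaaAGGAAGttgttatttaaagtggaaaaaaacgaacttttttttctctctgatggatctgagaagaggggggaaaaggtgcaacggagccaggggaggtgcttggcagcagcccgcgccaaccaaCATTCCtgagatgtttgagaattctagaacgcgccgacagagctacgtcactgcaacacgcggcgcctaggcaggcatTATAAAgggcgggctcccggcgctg
Postn: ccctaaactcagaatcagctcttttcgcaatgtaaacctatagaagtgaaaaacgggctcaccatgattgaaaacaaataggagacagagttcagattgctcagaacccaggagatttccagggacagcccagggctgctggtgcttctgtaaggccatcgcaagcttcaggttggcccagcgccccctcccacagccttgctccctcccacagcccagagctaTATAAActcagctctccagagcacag
Tnc: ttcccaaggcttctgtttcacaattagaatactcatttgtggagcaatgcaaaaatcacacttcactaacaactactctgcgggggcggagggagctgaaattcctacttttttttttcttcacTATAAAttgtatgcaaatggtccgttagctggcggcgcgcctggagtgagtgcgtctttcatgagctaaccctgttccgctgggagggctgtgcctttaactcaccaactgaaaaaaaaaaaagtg
The letters searched, on both strands, were CGGAAG and AGGAAG (forms of the ETS core), CATTCC (TEAD), TGANTCA (AP-1), CAGACA (SMAD) and TATAAA (the TATA box). The *Ccn1* window held AGGAAG 226 bases, CATTCC 103 bases and TATAAA 25 bases before the start. The *Postn* window held TATAAA 26 bases before the start, and the *Tnc* window held it 126 bases before. The other *Tnc* start had AGGAAG 43 bases before it, CAGACA on the opposite strand 71 bases before it, and the same TATAAA as the window shown, 205 bases before it. The other *Postn* start had AGGAAG on the opposite strand 228 bases before it. *Thbs2* had CAGACA on the opposite strand 67 and 44 bases before its start and TATAAA on the opposite strand 126 bases before it, and *Sparc* had CAGACA on the opposite strand 36 bases before it. CGGAAG and TGANTCA were found before none of the 7 start sites. Of 32851 promoter windows of the same length, 13.6% held CGGAAG, 29.5% AGGAAG, 12.6% CATTCC, 6.7% TGANTCA, 17.1% CAGACA and 12.4% TATAAA. These matches do not overlap and describe letters only.

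The 4 arrays had nearly the same distribution of values, with medians between 5.51 and 5.55 on the log2 scale, as the normalization imposes. *Ets2* itself read 8.14 and 8.35 (*Ets2* present, *Ets2* null) in normal fibroblasts and 8.34 and 8.31 in *ErbB2* fibroblasts on its brightest probe set, and since the place of its probe sets relative to the deleted exons is not known here, they do not check the genotypes. Of 12 fibroblast markers, 12, 11, 12 and 12 reached log2 6 on the normal *Ets2* present, normal *Ets2* null, *ErbB2* *Ets2* present and *ErbB2* *Ets2* null arrays, an order kept for every run of 4 values here. Values under log2 6 were taken as not shown above background, and a fold is given only where both arrays reached it. Markers of other cells were measurable too and differed between arrays. The sum of 10 luminal epithelial markers was 10.13, 11.40, 11.15 and 9.63 as log2 intensity, that of 8 basal epithelial markers 8.13, 9.89, 9.38 and 8.05, that of 12 macrophage and myeloid markers 13.29, 13.02, 14.21 and 12.87, and that of 9 skeletal muscle markers 11.14, 12.07, 11.57 and 9.91. In RNA from a whole culture, fewer cells of a type and less RNA per cell cannot be told apart.

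Of the 10 genes, *Ccn3* was past 4-fold in both Ets2 comparisons, and 9 of the 10 were at log2 6 or more on all 4 arrays, *Sparcl1* being the exception. *Sparcl1* passed 4-fold in *ErbB2* fibroblasts on the values as deposited, but it ended under log2 6 there, and with such values set to log2 6 its difference was -1.94, short of 4-fold. In normal fibroblasts 1 gene, *Ccn3*, was more than 4-fold lower without *Ets2* (0.022% of all genes were) and none was more than 4-fold higher (0.0824% of all genes). At 2-fold, *Ccn3* and *Sparcl1* were lower, 2 genes against 0.357% of all genes, and none was higher, against 0.621%. In *ErbB2* fibroblasts, *Ccn3* was more than 4-fold higher without *Ets2* (0.033% of all genes), and on the deposited values alone *Sparcl1* counted as more than 4-fold lower (0.324%). At 2-fold, *Ccn3* alone was higher (0.341% of all genes) and 3 genes, *Ccn1*, *Tnc* and *Sparcl1*, were lower (1.74%). The median Ets2 difference of the 10 genes was -0.19 in normal fibroblasts, with 7 genes below 0, and -0.19 in *ErbB2* fibroblasts, with 6 below 0, while the medians over all genes were -0.003 and 0.039, with 50.55% and 44.2% of genes below 0. Over all genes the Ets2 differences had a robust SD of 0.215 in normal and 0.271 in *ErbB2* fibroblasts, which is a spread over genes and not over replicates.

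**Figure D1:**
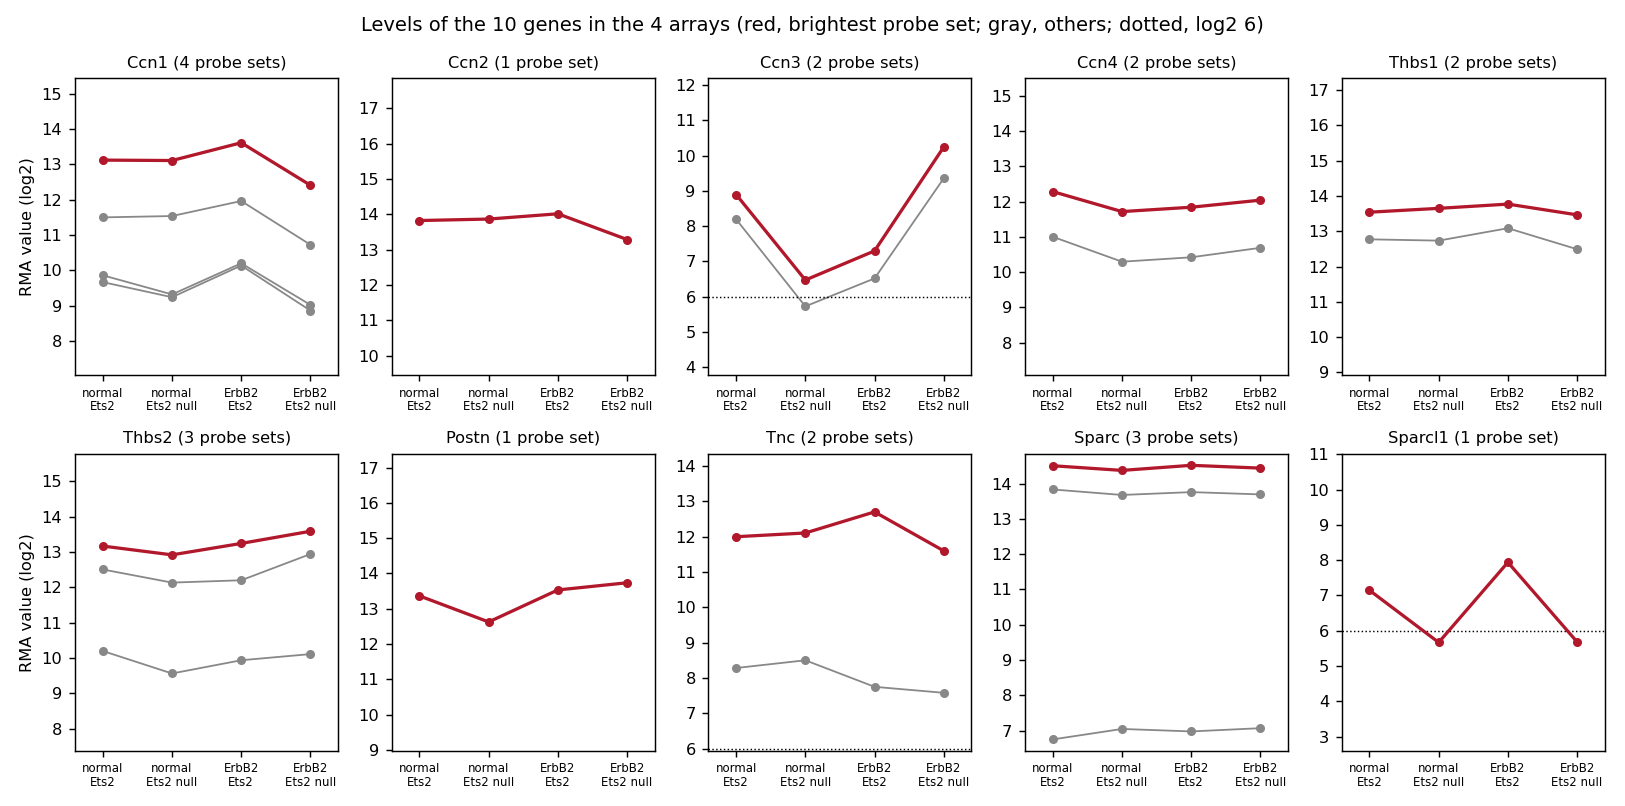
Levels of the 10 genes in the 4 arrays, as RMA values on the log2 scale, with 1 panel per gene, axes of equal length, and 1 line per probe set (red for the brightest, gray for the others). *Ccn3* reads 8.90 and 6.47 on the normal and 7.30 and 10.24 on the *ErbB2* arrays, while *Sparc* stays between 14.37 and 14.52.

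**Figure D2:**
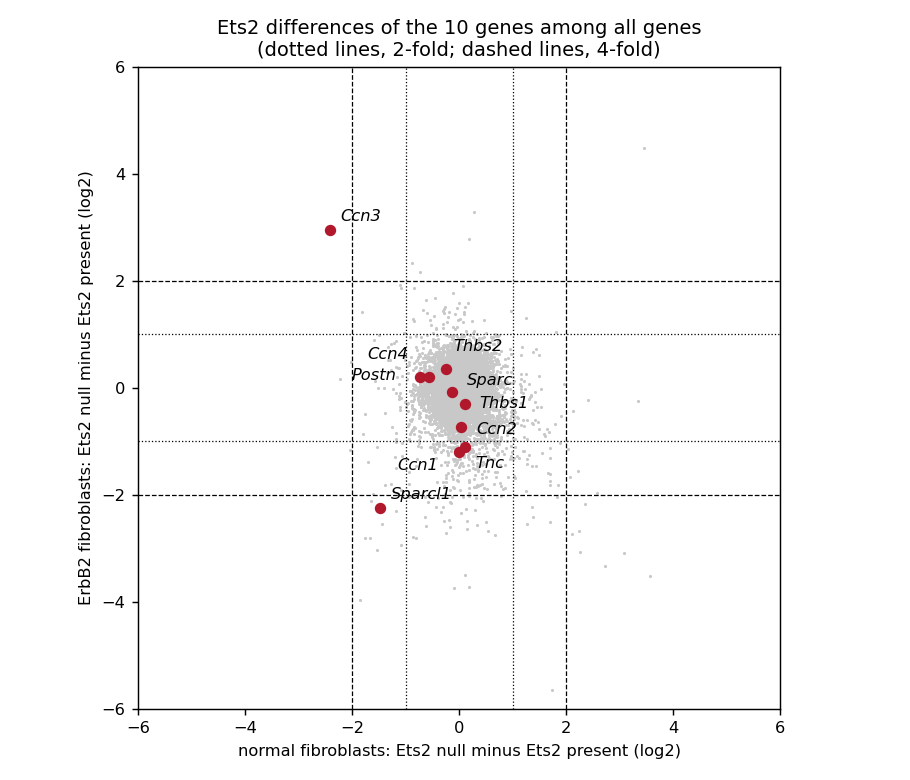
Log2 differences (*Ets2* null minus *Ets2* present) of all genes (gray) and of the 10 genes (red), in normal fibroblasts (horizontal axis) and *ErbB2* fibroblasts (vertical axis), each from 1 pair of arrays. *Ccn3*, the 1 gene of the 10 past 2-fold in opposite directions, lies at the upper left, at -2.42 and 2.94. *Sparcl1* lies at the lower left, at -1.48 and -2.26.

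*Ccn3*, formerly *Nov*, encodes the CCN protein known for restraining growth. Its brightest probe set read 8.90 in normal *Ets2* present, 6.47 in normal *Ets2* null, 7.30 in *ErbB2* *Ets2* present and 10.24 in *ErbB2* *Ets2* null fibroblasts. The order of the 4 arrays was thus *ErbB2* *Ets2* null, normal *Ets2* present, *ErbB2* *Ets2* present, normal *Ets2* null, and the closest neighbours in it, the last pair, were 0.83 apart. Without *Ets2*, *Ccn3* was 5.36-fold lower in normal fibroblasts and 7.70-fold higher in *ErbB2* fibroblasts. Its difference in normal fibroblasts was the lowest of all 18194 genes, and that in *ErbB2* fibroblasts was the third highest. The other probe set of *Ccn3* gave differences of -2.47 and 2.84, from values of 8.20, 5.73, 6.52 and 9.36. The study's own list for normal fibroblasts already holds this other probe set, as *Nov*, with the same difference of -2.47. Both probe sets were designed on 1 source sequence, so they are not independent readings, and 5.73 lies under log2 6, so the size of -2.47 is not exact. The Ets2 difference in *ErbB2* fibroblasts minus that in normal fibroblasts was 5.37, the highest of all genes and rank 5 by size in either direction. These ranks come from the values by which *Ccn3* was picked, and this difference was not tested.

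Most epithelial markers ran the opposite way to *Ccn3* over the same arrays, above 0 without *Ets2* in normal and below 0 in *ErbB2* fibroblasts, namely 8 of 10 luminal and 5 of 8 basal markers. The exceptions were *Epcam*, *Elf5*, *Oxtr*, *Dsc3* and *Trp63*. On its brightest probe set *Epcam* was below 0 in both. Another *Epcam* probe set, in the study's own list for normal fibroblasts, was over 4-fold higher without *Ets2*, from a value under log2 6. *Elf5*, *Oxtr* and *Dsc3* were above 0 in both, and *Trp63* was at -0.27 and 0.32. Of the exceptions *Epcam* alone reached log2 6. Among the markers that ran the opposite way, *Cdh1*, *Muc1* and *Krt17* did not reach it on any array. *Krt8*, a luminal keratin, read 6.65, 9.73, 9.25 and 6.15, and *Krt14*, a basal keratin, read 5.54, 8.27, 8.26 and 4.93. *Krt8* was thus high on the 2 arrays on which *Ccn3* was low. Without *Ets2*, 5 of the 10 luminal markers were over 2-fold higher in normal fibroblasts and 6 over 2-fold lower in *ErbB2* fibroblasts, with median differences of 0.91 and -1.29. With values under log2 6 set to log2 6, these counts were 4 and 4. Of the 8 basal markers, 5 were over 2-fold higher in normal and 3 over 2-fold lower in *ErbB2* fibroblasts, with medians of 1.66 and -0.80, and at that floor 2 and 1 were. The part of epithelial cells in the *Ccn3* differences was not tested.

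The genes with the most similar profile to *Ccn3* were sought among 135 genes that reached log2 6 on at least 1 array and varied enough, by the Euclidean distance over the 4 arrays after centring each gene on its mean. The nearest were *Il33*, an alarmin cytokine (distance 1.19), *Cyp7b1*, an oxysterol hydroxylase (1.38), *Scg2*, a secretogranin (1.58), and *Aspn*, the small leucine-rich proteoglycan asporin (1.66). *Il33* read 5.15, 4.05, 4.76 and 6.68, so it reached log2 6 on the *ErbB2* *Ets2* null array only. *Cyp7b1* read 7.87, 6.06, 8.08 and 9.50, with Ets2 differences of -1.81 and 1.42. *Aspn* read 7.65, 7.19, 7.72 and 9.38, and its difference in normal fibroblasts, -0.46, was short of 2-fold. The best matches were closer when the *Ccn3* profile was turned upside down, a step added after the values were seen: *Cd24a*, a mucin-like surface protein, lay at 0.578, *Dsp*, desmoplakin, at 0.760, *Krt8* at 0.769 and *Clu*, clusterin, at 0.791. Of these, *Clu* read 7.81, 10.07, 10.16 and 7.10, and *Cd24a* 5.85, 7.95, 7.69 and 4.95. Over all genes, 41 were at the same time over 2-fold higher without *Ets2* in normal and over 2-fold lower in *ErbB2* fibroblasts, whereas 6 ran the way of *Ccn3*, namely *Ccn3* itself, *Cyp7b1*, *Dbp*, *Il33*, *Kif26b* and *Scd2*. With values under log2 6 set to log2 6, 29 genes and 5 genes did, and *Il33*, under log2 6 on both normal arrays, was no longer among the latter.

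**Figure D3:**
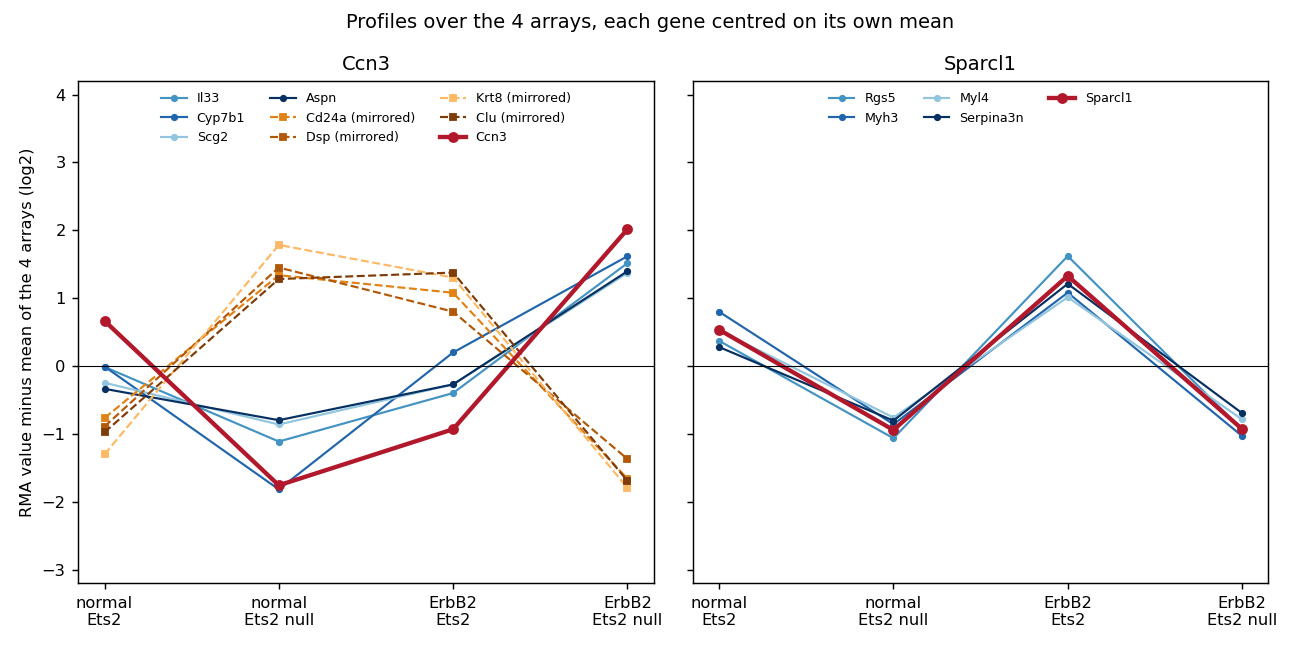
Profiles of *Ccn3* (left) and *Sparcl1* (right) in red over the 4 arrays, as RMA values minus each gene's mean (log2), with the 4 nearest genes in blue and, for *Ccn3*, the 4 nearest to its mirrored profile in orange and brown (dashed). *Krt8* and *Clu* peak on the 2 arrays on which *Ccn3* is lowest, and *Rgs5* follows *Sparcl1* at a distance of 0.356.

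*Ccn1*, formerly *Cyr61*, encodes an integrin ligand that is switched on within minutes by serum and growth factors. Its brightest probe set read 13.12 and 13.11 on the normal arrays (*Ets2* present, *Ets2* null) and 13.61 and 12.41 on the *ErbB2* arrays in the same order. The normal arrays were alike, and the *ErbB2* *Ets2* null array was the lowest of the 4. The *ErbB2* difference of -1.21, a 2.31-fold lower level, was repeated on all 4 probe sets, between -1.28 and -1.18. In normal fibroblasts the probe sets did not run one way, from -0.54 to 0.04. The dimmer pair of probe sets read 9.86, 9.32, 10.20 and 9.02, and 9.66, 9.24, 10.13 and 8.86. This pair was designed on the same source sequence, so the 4 probe sets are not 4 independent readings. Of all genes, 1.39% differed as much as *Ccn1* between the *ErbB2* arrays in either direction, and of the 681 genes with a mean of log2 11 or more, 1.47% did.

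*Ccn2*, formerly *Ctgf*, encodes connective tissue growth factor, a mediator of fibrosis that acts with TGF-beta. It read 13.82, 13.87, 14.02 and 13.29 on its single probe set. The *ErbB2* *Ets2* null array was again the lowest, at a difference of -0.73 or 1.66-fold, short of 2-fold, and the normal arrays differed by 0.04. A difference of that size between the *ErbB2* arrays was passed by 4.57% of all genes and 8.81% of the 681 bright genes. *Ccn2* lies close to the top of the scale, which ended between 14.56 and 14.61 on these arrays, and whether this narrows its differences was not tested.

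*Ccn4*, formerly *Wisp1*, encodes a Wnt-induced CCN protein. It read 12.28, 11.72, 11.84 and 12.04, highest in normal *Ets2* present fibroblasts. Its differences were -0.57 in normal and 0.20 in *ErbB2* fibroblasts on the brightest probe set, and -0.71 and 0.27 on the other. Both probe sets were designed on the same source sequence. The directions were those of *Ccn3*, but none of these differences reached 2-fold.

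*Thbs1* and *Thbs2* encode trimeric thrombospondins, large glycoproteins that bind CD47 and restrain blood vessel growth through CD36, and thrombospondin 1 releases TGF-beta from its latent form. *Thbs1* read 13.54, 13.65, 13.77 and 13.46 on its brightest probe set and 12.77, 12.73, 13.08 and 12.49 on the other. Its values ranged over 0.30 on the brighter and 0.59 on the dimmer probe set, with Ets2 differences of 0.11 and -0.04 in normal fibroblasts and -0.30 and -0.59 in *ErbB2* fibroblasts. *Thbs2* read 13.17, 12.92, 13.25 and 13.59 on its brightest probe set, 12.51, 12.14, 12.20 and 12.94 on the next, and 10.20, 9.56, 9.94 and 10.11 on the dimmest. All 3 probe sets were lower without *Ets2* in normal fibroblasts, by differences from -0.64 to -0.25, and higher in *ErbB2* fibroblasts, by 0.17 to 0.74. The brightest and the next of them were designed on the same source sequence. Neither gene passed 2-fold on any probe set in an Ets2 comparison.

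*Postn* encodes periostin, which links collagen to other matrix proteins and is abundant in tumor stroma. It read 13.36, 12.63, 13.53 and 13.74 on 1 probe set, so the normal *Ets2* null array was the lowest, 1.67-fold under its *Ets2* present counterpart, and the other 3 spanned 0.37. Of the 681 bright genes, 1.47% differed as much between the normal arrays. In *ErbB2* fibroblasts the Ets2 difference was 0.20.

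*Tnc* encodes tenascin C, a hexameric glycoprotein that weakens adhesion and appears in wounds and tumor stroma. Its brightest probe set read 12.00, 12.11, 12.70 and 11.60, which put *Ets2* null below *Ets2* present by 1.10 in *ErbB2* fibroblasts, a 2.15-fold difference, with a difference of 0.11 in normal fibroblasts. Like that of *Ccn1*, this value was highest on the *ErbB2* *Ets2* present array and lowest on the *ErbB2* *Ets2* null array. The other, dimmer probe set read 8.28, 8.50, 7.75 and 7.58 and gave an Ets2 difference of -0.17 in *ErbB2* fibroblasts. The probe sets disagreed, and the mean over both, -0.64, was short of 2-fold, as was the brightest probe set after quantile normalization, at -0.95.

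*Sparc* encodes osteonectin, a collagen-binding calcium-binding protein made by most fibroblasts in culture. It read 14.50, 14.37, 14.52 and 14.44, a range of 0.14 over the 4 arrays, against array maxima of 14.59, 14.56, 14.56 and 14.61. Its dimmer probe sets had Ets2 differences of -0.16 and -0.07 at 13.83, 13.68, 13.76 and 13.69, and of 0.30 and 0.09 at 6.75, 7.05, 6.98 and 7.07.

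*Sparcl1*, hevin, is a relative of *Sparc* that is known from blood vessel walls, muscle and brain and opposes adhesion. Its single probe set read 7.15 in normal *Ets2* present, 5.67 in normal *Ets2* null, 7.94 in *ErbB2* *Ets2* present and 5.68 in *ErbB2* *Ets2* null fibroblasts. Both *Ets2* present arrays were above log2 6 and both *Ets2* null arrays under it. The differences were -1.48 in normal and -2.26 in *ErbB2* fibroblasts. Because both end under log2 6, neither is exact and no fold is given. With values under log2 6 set to log2 6, they were -1.15 and -1.94. The nearest of 506 genes by profile were *Rgs5*, a pericyte marker (0.356), *Myh3*, embryonic myosin heavy chain (0.385), *Myl4*, embryonic myosin light chain (0.390), and *Serpina3n*, a serine protease inhibitor (0.390).

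Some markers of other cell types differed along with *Sparcl1* and others did not. *Rgs5* read 6.60, 5.16, 7.85 and 5.29, and *Myl4* 7.83, 6.55, 8.32 and 6.52. Of 10 pericyte and smooth muscle markers, *Rgs5* was the 1 gene more than 2-fold lower in both Ets2 comparisons, with its lower values under log2 6. With values under log2 6 set to log2 6, *Rgs5* was more than 2-fold lower in *ErbB2* fibroblasts only. *Myh11*, smooth muscle myosin, was 2.24-fold higher without *Ets2* in normal fibroblasts. The median differences of this list were 0.06 in normal and -0.38 in *ErbB2* fibroblasts, and the log2 of its summed intensities was 15.32, 15.43, 15.32 and 15.02. Of 10 endothelial markers, 9 were below 0 in normal and 10 in *ErbB2* fibroblasts, against 50.55% and 44.2% of all genes. Their medians were -0.64 and -0.49, and the log2 of their summed intensities was 10.02, 9.29, 9.72 and 9.14. Of 9 skeletal muscle markers, 2 were more than 2-fold lower in normal and 7 in *ErbB2* fibroblasts, with medians of -0.61 and -2.13, and with values under log2 6 set to log2 6, 2 and 5 were. *Acta1*, skeletal muscle actin, was 2.92-fold higher without *Ets2* in normal fibroblasts, where 8 of the 9 markers were below 0. The log2 of the summed intensities of the list was also higher there, 12.07 against 11.14. This sum mostly follows *Acta1*, which read 11.89 against 10.34. The part of these cells in the *Sparcl1* differences was not tested.

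The oncogene comparisons, *ErbB2* minus normal, use the same arrays as the Ets2 comparisons, and the values are given without relating one kind to the other. With *Ets2* present, *Ccn3* was 3.03-fold lower in *ErbB2* fibroblasts, the 1 gene of the 10 more than 2-fold lower (0.17% of all genes were), and none was more than 2-fold higher (0.83%). *Sparcl1* and *Tnc* were higher by 0.79 and 0.70, and *Ccn1* by 0.49. Without *Ets2*, *Ccn3* was 13.7-fold higher in *ErbB2* fibroblasts, a difference of 3.77 that was the highest of all genes, and *Postn* was 2.16-fold higher, making 2 genes against 0.544% of all genes. None of the 10 was more than 2-fold lower (1.51% of all genes), the lowest being *Ccn1* at -0.70. *Sparcl1* differed by 0.01 there, with both values under log2 6.

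Of 19 measured genes of other CCN and matricellular proteins, none passed 2-fold in normal fibroblasts and 2 were lower without *Ets2* in *ErbB2* fibroblasts, where 1.74% of all genes were, with medians of -0.10 and -0.05. *Spon1*, the matrix protein F-spondin, read 9.05, 8.90, 10.34 and 9.16, a difference of -1.17 in *ErbB2* fibroblasts. In the oncogene comparisons, *Spon1* and *Tgfbi* were higher by 1.29 and 1.13 and *Smoc1* differed by -1.11 with *Ets2* present, and *Spon2* differed by -1.30 with *Ets2* null. The other of the 2, *Thbs4*, stayed under log2 6 on all 4 arrays. *Ccn5*, the CCN protein without the carboxy-terminal domain, read 11.99, 11.36, 11.62 and 11.98, and *Thbs3* read 7.28, 6.54, 7.35 and 7.30; these 2 were chosen after their values were seen as close relatives, and both were lowest on the normal *Ets2* null array.

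Among 18 measured receptors and binding partners, none passed 2-fold in normal fibroblasts and 6 were lower without *Ets2* in *ErbB2* fibroblasts, against 1.74% of all genes, with medians of -0.07 and -0.25. At 6.79 and 5.02, *Itgam* ended under log2 6, and with such values set to log2 6 the count was 5. *Cd36*, through which thrombospondins act on endothelial cells and which also takes up lipids, read 8.45, 8.64, 10.61 and 6.88, with the *ErbB2* *Ets2* present array the highest and the *ErbB2* *Ets2* null array the lowest. *Itga6* and *Itga5*, integrin chains for laminin and fibronectin, differed by -1.44 and -1.22 in *ErbB2* fibroblasts. *Sdc4*, a heparan sulfate proteoglycan that binds CCN and other matrix proteins, differed by -1.32. *Itgam* and *Stab1*, both known from macrophages, differed by -1.76 and -1.04. Of 12 macrophage and myeloid markers, a list that also holds *Itgam*, 7 were more than 2-fold lower there, *Itgam* among them, with a median of -1.19. With values under log2 6 set to log2 6, 5 of these markers were, without *Itgam*. The part of macrophages in these differences was not tested.

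The matrix proteins that these factors bind, and enzymes that act on them, were measured by 11 genes. All 11 were below 0 in normal fibroblasts, with a median of -0.31, where 50.55% of all genes were. In *ErbB2* fibroblasts 8 of 11 were, with a median of -0.14, against 44.2% of all genes. *Col3a1*, type III collagen, was the 1 gene past 2-fold in an Ets2 comparison. It read 13.62, 12.48, 13.93 and 13.72, so that, like *Postn*, it was lowest on the normal *Ets2* null array, at a difference of -1.13. *Dcn*, decorin, a collagen-binding proteoglycan named after its values were seen, differed by -0.87 in normal and -0.77 in *ErbB2* fibroblasts. Fibroblast markers had medians of -0.44 and -0.06 in the normal and *ErbB2* comparisons. The 2 lists are not separate readings, since both hold *Col1a1*, *Col1a2*, *Col3a1* and *Dcn*.

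Of the 20 YAP and TEAD pathway genes, 15 were below 0 in *ErbB2* fibroblasts and 8 in normal fibroblasts, against 44.2% and 50.55% of all genes. Their medians were -0.33 and 0.06. *Ankrd1*, a YAP target in the nucleus and sarcomere, read 11.34, 12.46, 11.60 and 10.29, with Ets2 differences of 1.11 in normal and -1.31 in *ErbB2* fibroblasts. *Crim1*, a transmembrane protein that binds BMPs, differed by 0.40 and -1.82. The coactivators themselves, *Yap1* and *Wwtr1*, differed by -0.52 and -0.16 in *ErbB2* fibroblasts. Of the 12 genes of serum response factor and its MRTF cofactors, 9 were above 0 in normal and 9 below 0 in *ErbB2* fibroblasts, with medians of 0.23 and -0.54. *Srf* itself and *Fos*, an immediate-early gene, differed by -1.28 and -1.85 in *ErbB2* fibroblasts.

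Of 17 measured TGF-beta signalling genes, 10 were below 0 in normal and 13 in *ErbB2* fibroblasts, against 50.55% and 44.2% of all genes. Their medians were -0.08 and -0.14. The 3 ligands did not run together. *Tgfb1* read 8.98, 7.88, 8.68 and 8.27 and was 2.14-fold lower without *Ets2* in normal fibroblasts. *Tgfb2* read 8.57, 9.34, 9.32 and 7.87, and *Tgfb3* read 10.90, 11.35, 11.96 and 9.84, which made them 2.74-fold and 4.33-fold lower without *Ets2* in *ErbB2* fibroblasts. *Tgfb2* and *Tgfb3* were lowest on the *ErbB2* *Ets2* null array, as *Ccn1*, *Ccn2*, *Thbs1* and *Tnc* were. A link between these ligands and those genes was not tested.

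**Figure D4:**
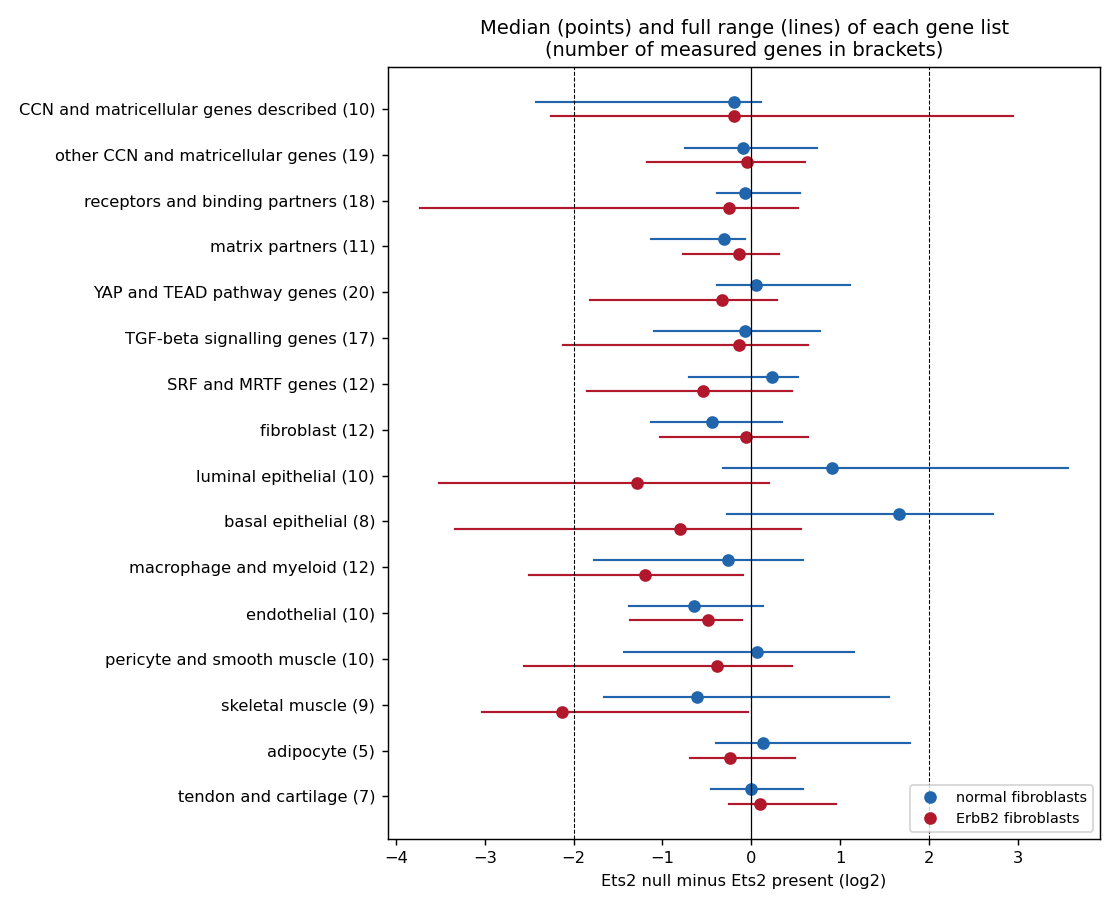
Log2 differences (*Ets2* null minus *Ets2* present, horizontal axis) by gene list, with the median of each list as a point and its lowest and highest gene as the ends of a line, in normal (blue) and *ErbB2* (red) fibroblasts, each from 1 pair of arrays. The medians of the 10 genes lie at -0.19 in both, and those of the luminal epithelial markers at 0.91 and -1.29.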

How the data were processed

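Mammary fibroblast RNA was profiled on 4 Affymetrix arrays, 1 per genotype. The deposited values are log2 expression values that the authors made with RMA, which the submitters' processing notes also name. The software behind it and the probe sets' definitions were not given in the sources used here. Since RMA gives all arrays nearly 1 distribution, a shift common to most genes is removed.

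Names of probe sets came from the platform annotation: 34958 had 1 symbol, 932 had several, and 9211 were unnamed here and not used by name. Each gene took the value of its brightest probe set, by the mean over the 4 arrays. Python 3.11.15 was used with numpy 2.4.6 and pandas 2.3.3, with statsmodels 0.14.6 for loess and matplotlib 3.10.9 for figures, and the steps were tested on simulated data. Precision is limited by the number of arrays, and no p-value was computed. The members and gene lists were chosen with earlier results of these data known. Named genes were the 10 members, *Ets2*, listed genes past 2-fold in an Ets2 comparison with the higher array at log2 6 or more, and the 4 genes nearest to each member past 4-fold. Genes near the mirrored *Ccn3* profile, the relatives *Ccn5* and *Thbs3*, *Yap1*, *Wwtr1*, *Dcn*, *Tgfbi*, *Smoc1*, *Spon2* and the marker examples were named after their values were seen. The listed genes *Spp1*, *Itga11*, *Fbn1* and *Plin1* were not analysed here. Adipocyte markers had median Ets2 differences of 0.13 in normal and -0.24 in *ErbB2* fibroblasts, and tendon and cartilage markers of -0.01 and 0.10. Promoters came from RefSeq. Alternatives were other thresholds (8-fold or 2-fold), quantile normalization, loess (span 0.4), median centring, a floor at log2 6, probe sets ending in _x_at or _s_at left out, and the mean over, or any of, a gene's probe sets. Setting values under log2 6 to log2 6 was added after seeing the data.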

Additional observations from a re-analysis of the deposited data

Results flagged for a closer look

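*Ccn3* stood apart because its Ets2 difference ran in opposite directions in normal and *ErbB2* fibroblasts, -2.42 and 2.94 on the log2 scale. The second minus the first was 5.37, each from 1 pair of arrays, and this difference was not tested. *Ccn3* was picked for this pattern.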

How the results depend on the processing

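At the 2-fold threshold, 2 of the 10 genes passed in normal fibroblasts and 4 in *ErbB2* fibroblasts for the Ets2 differences, and 1 with *Ets2* present and 2 with *Ets2* null for the oncogene differences. At 8-fold, 0 passed in either Ets2 comparison. Under the alternative scalings and choices of probe set, and with the higher array required to reach log2 6, the counts past 4-fold did not move. With values under log2 6 set to log2 6, chosen after seeing the data, 1 gene in place of 2 passed 4-fold in the Ets2 comparison of *ErbB2* fibroblasts, since *Sparcl1* no longer did. Some of these settings could move few differences or none. The requirement on the higher array only dropped values, and the floor could change *Sparcl1* alone. A gene with 1 probe set could not move with the choice of probe set. Shifts were set against the robust SD over genes, which does not give the missing spread between replicates. Of 279 differences of the 10 genes recomputed, 273 moved by less than this SD, a count partly fixed in advance. Of the other 6, 2 were those of *Sparcl1* at that floor, -1.15 and -1.94, and 4 moved with the mean over probe sets: *Ccn1* to -0.24 in normal fibroblasts, *Tnc* to -0.64 in *ErbB2* fibroblasts, and, for *ErbB2* minus normal with *Ets2* present, *Thbs2* to -0.16 and *Tnc* to 0.09. That mean also moved the *Tnc* difference between the Ets2 differences in *ErbB2* and normal fibroblasts, from -1.21 to -0.80. The 6 changes of sign were among differences between -0.13 and 0.08. The value of 5.37 for *Ccn3* lay between 5.31 and 5.45 under the alternatives. No replicate could be left out and no paired analysis was possible because each genotype has 1 array. Signal over background limits *Sparcl1*, and a limit from the top of the scale on *Sparc* and *Ccn2* was not tested.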
